A study of Mus musculus and Homo sapiens with 18 samples.

Results

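Molecular chaperones of the HSP70, HSP90, J-domain and TRiC families were followed in RNA-seq counts from mouse lenses, mouse lens progenitor-like cells and a human lens epithelial cell line with and without deletion of the RNA-binding protein gene *Qk* (human *QKI*). The genes were taken by symbol: *Hspa* followed by a digit, *Hsp90*, *Dnaja*, *Dnajb* and *Dnajc* followed by a number, *Cct2* to *Cct8* with *Cct6a*, and *Tcp1*, *Hsph1*, *Hspd1* and *Hspe1*. They numbered 72 of 46882 genes in the lens table, 72 of 54838 in the table of progenitor-like cells and 72 of 60880 among human genes. By symbol, 71 were shared by all systems, *HSPA6* was in the human table alone and *Dnajb3* in the mouse tables alone. In the human cells 3 rows that fitted the pattern were left out: *HSPA7*, a pseudogene and near copy of *HSPA6*, the pseudogene *DNAJB3* and a second row named *HSPA14*.

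Chaperones bind unfolded stretches of other proteins and help them reach or keep their folded form. HSP70 does so in cycles of ATP use that J-domain proteins start and that exchange factors such as HSP110 reset, HSP90 takes over partly folded clients, and TRiC is a ring of related subunits that encloses actin, tubulin and other newly made proteins. Fibre cells of the lens keep their proteins for life without renewal, and the small heat shock proteins αA- and αB-crystallin are abundant chaperones there, outside the families described here.

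Each group had 3 libraries. Control lenses (Ctrl) came from *Nestin*-CreERT2; *Qk* L/+ mice and deleted lenses (*Qk*-iCKO) from *Nestin*-CreERT2; *Qk* L/L mice, so that both carried the transgene, in which the *Nestin* promoter drives a tamoxifen-activated Cre recombinase. Tamoxifen was injected at postnatal days 7 and 8 and lenses were taken between postnatal days 17 and 19. The progenitor-like cells (NLPCs) were made from neural stem cells of newborn mouse brain, by the methods from *Nestin*-CreERT2; *Qk* L/L mice. The cells received noggin (100 ng/mL) for 6 days and then, for 12 days, bFGF at 100 ng/mL together with BMP4 and BMP7, both at 20 ng/mL. Their 2 groups are labelled WT and *Qk* -/-, and deletion was by 100 nM 4-hydroxytamoxifen. The sources give this drug for the *Qk* -/- group alone, so drug and deletion cannot be told apart in NLPCs. HLE-B3 is an immortalized human lens epithelial cell line, grown in 20% fetal bovine serum, and its *QKI* KO cells were a puromycin-enriched pool made with lentiviral CRISPR/Cas9. The methods count 3 mice in each lens group and independent biological replicates for animal and cell line work, and the labels do not tie a culture library to a separate culture.

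Total counts ran from 10319320 to 16425331 per lens library, between 28154202 and 68243360 in NLPCs, and between 69190864 and 81384471 per HLE-B3 library. In *QKI* KO cells *QKI* was at 100.2 to 105 CPM (counts per 1e6 of the TMM-scaled library) against 257 to 263 in WT. In the mouse systems only exon 2 of *Qk* is flanked by loxP sites, so counts over the whole gene do not check the deletion: *Qk* was at 86.9 to 106 CPM in *Qk*-iCKO and 116 to 127 in Ctrl lenses, and at 3088 to 3599 CPM in the libraries labelled *Qk* -/- against 2444 to 2675 in WT. The 10 tested markers of leukocytes and macrophages were all higher in *Qk*-iCKO lenses, with a summed level of 139 to 186 CPM against 2.71 to 5.49 in Ctrl. Summed lens markers were at 179970, 333890 and 321645 CPM in *Qk*-iCKO lenses 1 to 3 and at 359841 to 385697 in Ctrl, with *Mip* lower. The lens gene *Lim2* was at 0.0238 CPM in Ctrl, unlike what the lens label and the marker sum would lead to, and the cause was not tested. Pigment cell markers were at 137 CPM in *Qk*-iCKO lens 1 and at 21.8 and 6.87 in lenses 2 and 3. Photoreceptor markers ran from 1.92 to 527 CPM in Ctrl. *Qk*-iCKO lens 1 stood apart in its scaling factor (1.48 against 0.888 to 0.962), and 4 Y-linked genes had 1051 and 930 counts in *Qk*-iCKO lenses 2 and 3 against 0 to 3 in the other 4 lenses. NLPCs had *Cryaa* near 0 (0.0703 CPM in WT), *Pax6* at 83.0 CPM and neural genes such as *Gfap* at 1391 CPM. HLE-B3 cells had *CRYAA* and *CRYBA1* at 0 and *PAX6* at 147 CPM. Summed, the 14 lens markers were at 194 to 197 CPM in WT NLPCs and 144 to 164 in those labelled *Qk* -/-. In HLE-B3 cells the sum was 623 to 732 CPM in WT and 1003 to 1156 in *QKI* KO. In Ctrl lenses *Cryaa* was at 158672 CPM.

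Promoters of the inducible HSP70 genes and of their relative *Hspa1l* are shown first. The largest changes in the lens and the highest levels in HLE-B3 cells were measured on genes of this set. Heat shock factor binds repeats of the letters NGAAN, and the capitals mark the palindromes GAANNTTC and TTCNNGAA, each of which reads the same on both strands. The 150 bases before the start of each gene are given 5′ to 3′ in the direction of transcription, the mouse ones from RefSeq (GRCm38.p6). *Hspa1a* (chr17:34972157-34972306, minus strand) and *Hspa1b* (chr17:34959239-34959388, minus strand) code for nearly the same stress-inducible HSP70, and *Hspa1l* (chr17:34972553-34972702, plus strand) for a relative best known from testis.
Hspa1a: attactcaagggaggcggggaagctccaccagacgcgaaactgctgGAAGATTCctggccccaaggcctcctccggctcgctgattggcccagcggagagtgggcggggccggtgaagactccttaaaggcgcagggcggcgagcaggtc
Hspa1b: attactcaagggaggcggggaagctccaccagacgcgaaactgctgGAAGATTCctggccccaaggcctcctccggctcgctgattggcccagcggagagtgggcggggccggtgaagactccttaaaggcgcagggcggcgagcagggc
Hspa1l: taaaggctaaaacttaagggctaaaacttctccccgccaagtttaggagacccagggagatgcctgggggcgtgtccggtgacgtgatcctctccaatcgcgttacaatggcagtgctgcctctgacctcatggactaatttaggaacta

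The mouse promoters of *Hspa1a* and *Hspa1b* held 1 such palindrome, 104 bases before the start, and that of *Hspa1l* held none in the window shown. *Hspa1a* and *Hspa1l* point away from each other, with 547 bases between their starts. Transcripts of *Hspa1a* and *Hspa1b* share long identical stretches: 47.1% of the 100-base windows of *Hspa1a* recur in *Hspa1b*, so reads may have been split between the copies or dropped, and the count of each is uncertain. *Hspa1a* shares 4.67% of its windows with *Hspa1l*.

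The human promoters are read from GRCh37 at the start of the main GENCODE transcript. They are shown for 5 of the genes whose levels in HLE-B3 cells are described below, and each of the 5 held a palindrome. *HSPA1A* (chr6:31783170-31783319, plus strand) and *HSPA1B* (chr6:31795365-31795514, plus strand) are the counterparts of the mouse pair, and *HSPA6* (chr1:161494180-161494329, plus strand) is a strictly inducible HSP70 that mice lack. *DNAJB1* (chr19:14629210-14629359, minus strand) is the main heat-inducible HSP40, and *HSPH1* (chr13:31736042-31736191, minus strand) is an inducible HSP110.
HSPA1A: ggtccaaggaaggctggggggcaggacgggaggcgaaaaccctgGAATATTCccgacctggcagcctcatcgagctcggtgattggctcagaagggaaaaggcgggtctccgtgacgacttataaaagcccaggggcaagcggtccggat
HSPA1B: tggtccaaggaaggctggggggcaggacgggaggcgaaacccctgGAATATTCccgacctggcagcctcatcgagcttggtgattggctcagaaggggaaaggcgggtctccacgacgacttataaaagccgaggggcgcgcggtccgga
HSPA6: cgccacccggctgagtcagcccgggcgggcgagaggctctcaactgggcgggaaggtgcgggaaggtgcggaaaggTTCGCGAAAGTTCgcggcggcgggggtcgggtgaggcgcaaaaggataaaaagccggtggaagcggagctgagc
DNAJB1: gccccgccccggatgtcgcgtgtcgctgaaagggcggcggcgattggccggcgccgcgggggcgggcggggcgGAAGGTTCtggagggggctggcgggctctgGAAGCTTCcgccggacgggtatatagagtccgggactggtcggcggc
HSPH1: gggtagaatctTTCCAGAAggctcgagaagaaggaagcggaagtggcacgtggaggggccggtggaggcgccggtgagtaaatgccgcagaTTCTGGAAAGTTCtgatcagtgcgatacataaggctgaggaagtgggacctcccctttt

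*HSPA1A* and *HSPA1B* each held 1 palindrome, at 106 and 105 bases before the start, *HSPA6* and *DNAJB1* held 2 and *HSPH1* held 3, with the pairs of *HSPA6* and *HSPH1* overlapping. Over the window from 250 bases before to 50 bases after the start, 23 of the 72 human chaperone genes (31.9%) held either palindrome, as did 11% of 19894 protein-coding promoters. Of 76 promoters that RefSeq lists for 58 of the mouse members, 22.4% held one, as did 15.1% of 32851 mouse promoters. Of the other human genes whose levels are given below, *HSPA8*, *HSP90AA1* and *DNAJA1* held a palindrome in that window and *HSP90AB1* held none. In the shorter stretch shown for the printed promoters, *DNAJA1* held none. A match is a description of letters only.

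The families were at very different levels in the 3 systems. Levels between genes are compared as RPKM, the normalized CPM divided by the length of the merged exons in kilobases, and since each table was normalized on its own, the order within a system is the safer reading. Summed chaperone counts made up 0.433 to 0.502% of all counts in the lens, 0.964 to 1.03% in NLPCs and 5.74 to 6.10% in HLE-B3 cells. The median member was at 2.97 RPKM in Ctrl lenses, 9.75 in WT NLPCs and 12.8 in WT HLE-B3 cells, and 2, 3 and 19 members were over 100 RPKM.

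In the mouse lens the leading member was *Hsp90ab1*, the constitutive cytosolic HSP90, at 349 RPKM in Ctrl. It was followed by the TRiC subunit *Cct5* at 135, *Hspa8*, the constitutive HSP70, at 88.4, *Tcp1*, the first TRiC subunit described, at 82.0, and *Dnajb1* at 78.8. *Hspa8* varied widely within groups, at 477, 436 and 228 CPM in Ctrl and 143, 528 and 246 in *Qk*-iCKO lenses, so its place among the next genes is not settled by these libraries. Inducible HSP70 was close to absent, with *Hspa1a* at 0.0917 and *Hspa1b* at 0.143 RPKM. In WT NLPCs *Hsp90ab1* was also first, at 634 RPKM, before *Hspa8* at 330, *Hsp90b1*, the HSP90 of the endoplasmic reticulum (ER), at 156, *Hsp90aa1*, the inducible HSP90, at 98.9 and *Cct5* at 98.3.

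HLE-B3 cells ranked *HSPA1A* first, at 6327 RPKM in WT, which was also the highest level of any protein-coding gene in the table. *HSP90AB1* was at 1757 RPKM (place 5 of all protein-coding genes), *HSPA6* at 1415 (place 6), *HSPA8* at 1327 (place 7), *HSPA1B* at 932, *HSP90AA1* at 915, *DNAJB1* at 574, *HSPH1* at 463 and *DNAJA1* at 340. The reads of the first gene are shared with its copy, since 69.5% of the 100-base windows of *HSPA1A* recur in *HSPA1B*, and 27.8% of those of *HSPA6* recur in the pseudogene *HSPA7*. The first 8 members held 84.8% of the summed RPKM of all 72, against 65.6% in the lens and 60% in NLPCs.

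**Figure D1:**
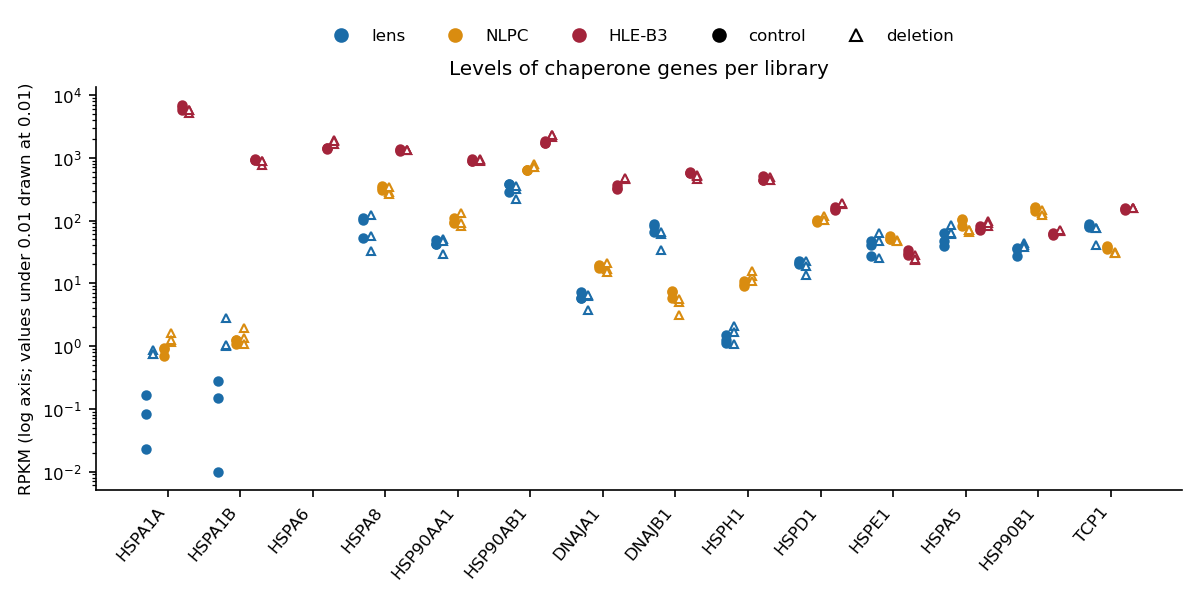
RPKM on a log axis of 14 chaperone genes in each of the 18 libraries, with circles for control and triangles for deletion libraries, blue for lens, orange for NLPC and red for HLE-B3; values under 0.01 are drawn at 0.01. *HSPA1A* lies below 1 RPKM in all lens libraries and at 5160 or more in all HLE-B3 libraries, while *HSPE1* lies between 23.4 and 63.7 in all 18.

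The promoter letters and the level went together in HLE-B3 cells. The 23 members with a palindrome had a median of 151 RPKM in WT and held 9 of the 10 highest places, with *HSP90AB1* the exception, and the 49 without one had a median of 6.67. In the lens the 15 members with a palindrome had a median of 2.80 RPKM and the 43 without of 2.73, and in NLPCs these medians were 9.89 and 9.46. The mouse medians leave out 14 members that matched no RefSeq promoter, among them *Hsp90ab1*, *Hspa8*, *Hsp90aa1*, *Hspa9* and *Cct4*, while the human medians cover all 72, so the systems are not compared on the same genes. The choice of window and letters was made with these levels known, so the contrast is a description.

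**Figure D2:**
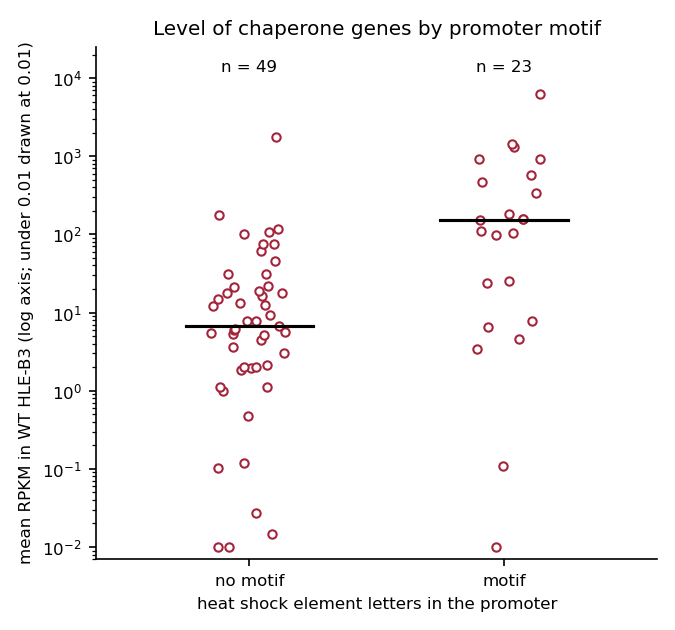
Mean RPKM in the 3 WT HLE-B3 libraries on a log axis, 1 point per chaperone gene, for genes without (n = 49) and with (n = 23) either palindrome in the window from 250 bases before to 50 after the start; lines are medians, 6.67 and 151.

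In *Qk*-iCKO lenses 5 chaperone genes rose and none fell: *Hspa1l*, *Hspa1a*, *Hspa1b*, the ER J-domain protein *Dnajb9* and the HSP110 relative *Hspa4l*. They were 7.81% of the 64 members tested, where 8.38% of all 12201 genes tested were higher and 3.88% lower (edgeR's quasi-likelihood test, adjusted p under 0.05 over all genes tested). At an unadjusted p under 0.05 there were 15 members, and DESeq2 called 6 higher and 1, *Hspa4*, lower. The groups did not overlap in 24 of the 64 (37.5%), 12 above and 12 below Ctrl, against 35.3% of all genes tested. The median log2 fold change of the members was −0.071 and that of all genes 0.0064. The 8 members not tested for low counts were *Dnajb3*, *Dnajb7*, *Dnajb8*, *Dnajb13*, *Dnajc5b*, *Dnajc5g*, *Dnajc22* and *Hspa12b*.

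The inducible HSP70 genes *Hspa1a* and *Hspa1b* and their relative *Hspa1l* went from near nothing to a low level. *Hspa1l* (chr17:34972703-34979285, GRCm38) was at 0.0829, 0.0713 and 0 CPM in Ctrl and 1.72, 1.45 and 2.52 in *Qk*-iCKO lenses, from 1, 1 and 0 against 28, 15 and 25 counts. All 3 *Qk*-iCKO lenses lay far above all 3 Ctrl lenses. The log2 fold change was 5.01 (SE 0.62, adjusted p = 0.00336 from edgeR), and the ratio of the summed counts, 2 against 68, was 37.8 after scaling, with a 95% counting interval of 10.1 to 318. The call was kept in all 13 alternative fits of the lens, the only 1 of the 5 of which this held.

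*Hspa1a* (chr17:34969190-34972156) had 3, 7 and 1 counts in Ctrl and 42, 23 and 22 in *Qk*-iCKO lenses, or 0.249, 0.499 and 0.0686 against 2.58, 2.23 and 2.22 CPM. The *Qk*-iCKO lenses were close to one another and all above Ctrl, with a log2 fold change of 3.07 (SE 0.52, adjusted p = 0.0103 from edgeR) that did not pass without Ctrl lens 1. *Hspa1b* (chr17:34956436-34959238) had 5, 11 and 0 counts in Ctrl and 129, 29 and 29 in *Qk*-iCKO lenses, or 0.414, 0.784 and 0 against 7.92, 2.81 and 2.93 CPM. Lens 1 carried most of its rise, and the log2 fold change was 3.51 (SE 0.84, adjusted p = 0.0350 from edgeR). The call was lost without any 1 lens other than *Qk*-iCKO lens 3, with log2 fold changes of 2.82 (without *Qk*-iCKO lens 1) to 4.51 (without Ctrl lens 2), and with total counts alone (adjusted p = 0.0554).

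These changes were large in ratio and small in amount. In *Qk*-iCKO lenses *Hspa1a* was at 0.789 and *Hspa1b* at 1.62 RPKM, and the constitutive *Hspa8* was at 71.1 RPKM there and 88.4 in Ctrl (log2 fold change −0.32, SE 0.48, adjusted p = 0.717 from edgeR). *Hspa2* had a log2 fold change of −0.17, *Hspa14* of −0.015 and *Hspa12a* of −0.71, none past the threshold. Of the 7 cytosolic HSP70 genes tested, 3 rose and 4 were not called, where 8.38% of all genes tested were higher. The leukocyte and macrophage markers above rose in the same lenses, and their part in the HSP70 rise was not tested. Bulk counts cannot tell more cells of a type from more RNA per cell.

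*Dnajb9* (chr12:44205559-44210326), a J-domain partner of the ER HSP70 and a target of the unfolded protein response, was at 4.72, 5.63 and 6.86 CPM in Ctrl and 17.1, 9.78 and 16.8 in *Qk*-iCKO lenses. All deleted lenses were higher, by a log2 fold change of 1.34 (SE 0.26, adjusted p = 0.0162 from edgeR), a call that was lost without Ctrl lens 1 or 2. *Hspa4l* (chr3:40744495-40796103), an HSP110-type exchange factor, was at 43.6, 35.9 and 38.9 CPM in Ctrl and 54.9, 68.6 and 85.2 in *Qk*-iCKO lenses (log2 fold change 0.82, SE 0.19, adjusted p = 0.0321 from edgeR). It was the only called member at more than 20 CPM, and its call was lost without any 1 lens other than *Qk*-iCKO lens 1.

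Y-linked counts split the *Qk*-iCKO lenses, with lens 1 at the low level of the Ctrl lenses. In each of the 5 genes *Qk*-iCKO lens 1 lay above every Ctrl lens. As a single library that stood apart in its scaling and in its lens and pigment cell markers, it gives no spread of its own. The part of this split in the results was not tested.

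**Figure D3:**
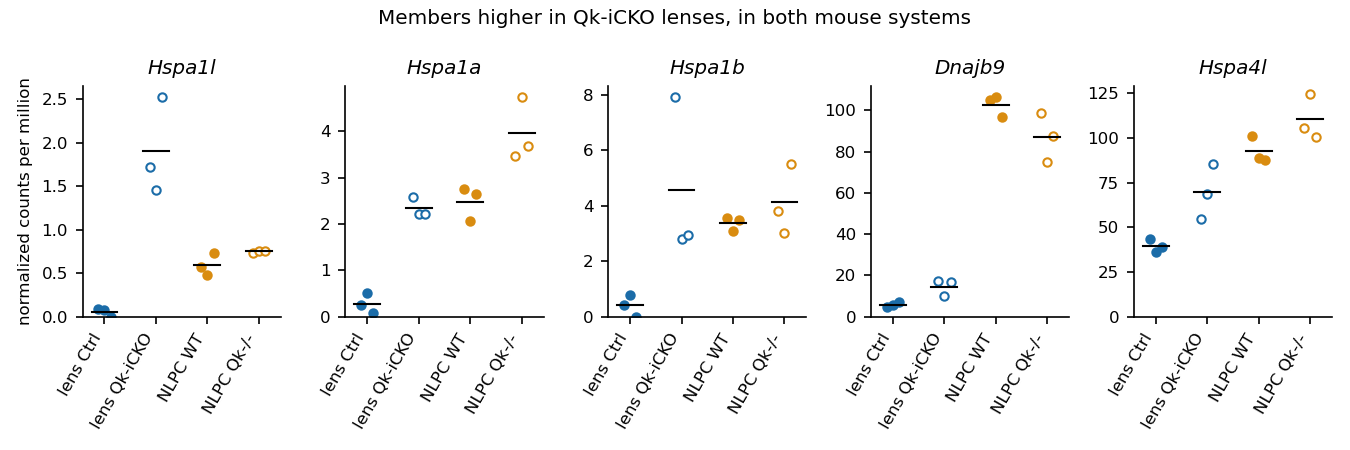
Normalized CPM of the 5 members that rose in *Qk*-iCKO lenses, 1 point per library with lines at group means, in lens (blue) and NLPC (orange), filled for control and open for deletion; each panel has its own linear axis from 0. *Qk*-iCKO lenses lie above Ctrl in all 5 panels, and *Dnajb9* in lens stays below its level in NLPCs.

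Of the 8 ER chaperones 1, *Dnajb9*, rose in the lens and 7 were not called. All 8 had a log2 fold change above 0, from 0.053 for *Dnajb11* to 1.34, with a median of 0.38, and 5 of the 8 lay above Ctrl without overlap, where 35.3% of all genes tested did not overlap in either direction. The 8 are a chosen list that does not hold every ER member, such as *Dnajb14* (0.044). J-domain members outside the list went both ways, among them *Dnajc25* (0.47), *Dnajc18* (−0.35) and *Dnajb12* (−0.43). The leukocyte and macrophage markers, at 139 to 186 CPM against 2.71 to 5.49, were higher in the same lenses, and their part in these values was not tested. *Hspa5*, which encodes BiP, the HSP70 of the ER, was at 200.04, 163 and 266 CPM in Ctrl and 257, 353 and 270 in *Qk*-iCKO lenses, so that the groups overlapped (log2 fold change 0.48, adjusted p = 0.216 from edgeR). *Dnajc10*, an ER reductase of disulfide bonds, had 0.59 (adjusted p = 0.0845), *Dnajc3*, an ER co-chaperone that binds the kinase PERK, 0.45 (adjusted p = 0.125), *Hsp90b1* 0.32 and *Hspa13* 0.26. Summed, the 8 genes were at 397 to 561 CPM in Ctrl and 587 to 688 in *Qk*-iCKO lenses.

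None of the 8 TRiC subunits was called in the lens. There all 8 lay below 0 on the log2 fold change scale, from −0.46 for *Cct7* to −0.14 for *Cct5*, with a median of −0.36, and 5 lay below Ctrl without overlap, against the same 35.3% of all genes tested. *Cct7* was at 163, 166 and 179 CPM in Ctrl and 87.1, 143 and 141 in *Qk*-iCKO lenses (adjusted p = 0.205 from edgeR). *Tcp1* was at 409, 391 and 438 CPM in Ctrl and 202, 380 and 387 in *Qk*-iCKO lenses (adjusted p = 0.421 from edgeR). Lens 1 was far below the rest in both, and without it the log2 fold changes were −0.26 for *Cct7*, −0.10 for *Tcp1*, 0.12 for *Cct5* and 0.078 for *Cct8*. With total counts alone, which moved the median of all genes to 0.29, *Cct5* and *Cct8* turned to 0.059 and 0.067.

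HSP90 and the main HSP40s did not pass in the lens. The log2 fold change was −0.23 for *Hsp90ab1* (adjusted p = 0.575 from edgeR), −0.090 for *Hsp90aa1*, −0.55 for *Dnajb1* (adjusted p = 0.220), −0.19 for *Dnaja1* and −0.18 for *Dnaja2*. *Dnajb1* was at 260, 214 and 284 CPM in Ctrl and 110, 194 and 214 in *Qk*-iCKO lenses, so that the top of one group met the bottom of the other. Of 9 mitochondrial members none was called, with *Hspa9*, the mitochondrial HSP70, at 0.34, *Hspd1*, the HSP60 ring, at −0.23 and *Hspe1*, its lid, at 0.24. *Hspa4* had −0.50 (adjusted p = 0.0745 from edgeR) and *Hsph1* 0.34. Of the 27 tested J-domain genes outside the ER and mitochondrial lists, none was called.

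Heat shock factors and co-chaperones were read from a list of 34 genes. Where 8.38% of all genes tested were higher and 3.88% lower, 2 of the 34 rose in *Qk*-iCKO lenses and none fell. Both act in the ER: *Sdf2l1*, a partner of ER J-domain proteins, went from 0.414, 1.57 and 1.10 to 4.79, 7.16 and 7.47 CPM (log2 fold change 2.62, adjusted p = 0.00911 from edgeR). *Hyou1*, the exchange factor of BiP, went from 30.9, 24.1 and 26.4 to 46.7, 42 and 42 CPM (log2 fold change 0.68, adjusted p = 0.0233 from edgeR). The *Hyou1* call was lost with total counts alone (adjusted p = 0.0616) and without any 1 Ctrl lens. *Hsf4*, the heat shock factor of lens development, was at 186 to 211 CPM in Ctrl and 133 to 223 CPM in *Qk*-iCKO lenses (log2 fold change −0.04, adjusted p = 0.921 from edgeR). *Hsf1* had a log2 fold change of 0.20 and *Hsf2* of −0.19, neither of which passed.

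In NLPCs 2 chaperone genes rose in the libraries labelled *Qk* -/- and 6 fell. They were 3.13 and 9.38% of the 64 members tested, where 4.74% of all 20371 genes tested were higher and 5.96% lower. At an unadjusted p under 0.05 there were 19 members, and the groups did not overlap in 23 of the 64 (35.9%), 7 above and 16 below WT, against 35.2% of all genes tested. The number lower was 3 with the replicate number as a block, 2 with total counts alone and 10 in DESeq2, and without the library labelled *Qk* -/- replicate 2, whose mean correlation with the others was 0.892 against 0.948 to 0.957, it was 13. The median log2 fold change of the members was −0.08 and that of all genes 0.04.

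*Dnajc6* (chr4:101496648-101642799) and *Dnajc24* (chr2:105966709-106003549) were the members past 2-fold. *Dnajc6* encodes auxilin, which recruits HSP70 to strip clathrin from vesicles, and was at 1.27, 1.32 and 1.37 CPM in WT and 5.47, 4.37 and 6.70 in the libraries labelled *Qk* -/-. The groups were tight and far apart (log2 fold change 2.06, SE 0.26, adjusted p = 0.00262 from edgeR). *Dnajc24*, which acts in the making of diphthamide on elongation factor 2, was at 11.4, 12.4 and 12.5 CPM in WT and 6.14, 4.89 and 5.04 in the libraries labelled *Qk* -/- (log2 fold change −1.18, SE 0.16, adjusted p = 0.00312 from edgeR). Both calls were kept in all 11 alternative fits of NLPCs.

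The other NLPC calls were small and lay mostly in the ER. *Hspa5* was at 441, 438 and 342 CPM in WT and 281, 297 and 300 in the libraries labelled *Qk* -/-, all below WT (log2 fold change −0.48, SE 0.11, adjusted p = 0.0336 from edgeR). *Hspa13*, an HSP70 of the ER that lacks a substrate domain, fell by 0.47 on the log2 scale (adjusted p = 0.0195) and *Dnajc3* fell by 0.36 (adjusted p = 0.0317), while *Dnajc1*, an ER J-domain protein that binds ribosomes, rose by 0.51 (adjusted p = 0.0199; all from edgeR). Outside the ER, *Hspa9* fell by 0.30 (adjusted p = 0.0353) and *Dnaja2*, a general HSP40, fell by 0.31 (adjusted p = 0.0387; both from edgeR). With the replicate block *Dnajc3*, *Hspa9* and *Dnaja2* did not pass, with adjusted p of 0.0593, 0.0586 and 0.0677. *Hspa5* did not pass with total counts alone (adjusted p = 0.0575). Without 1 library, the *Hspa5* call was lost in 4 of 6 fits and kept without WT replicate 3 or *Qk* -/- replicate 2. The *Dnajc1* call was lost in 4 of 6 and kept without *Qk* -/- replicate 2 or 3. Those of *Hspa13*, *Dnajc3*, *Hspa9* and *Dnaja2* were each lost in 5 of 6 and kept without *Qk* -/- replicate 2.

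Of the 8 ER members, 1 rose, 3 fell and 4 were not called in NLPCs, with a median of −0.23. Of all genes tested there, 4.74% were higher and 5.96% lower. The 8 TRiC subunits all lay below 0 on the log2 scale and none passed, from −0.37 for *Cct7* (adjusted p = 0.0573 from edgeR) to −0.041 for *Cct2*, with a median of −0.21. *Cct2* turned to 0.014 with total counts alone. *Hsp90ab1* was at 1903, 1901 and 1903 CPM in WT and 2348, 2139 and 2146 in the libraries labelled *Qk* -/-, above WT in every library, with a log2 fold change of 0.22 that did not pass (adjusted p = 0.127 from edgeR, 0.0281 in DESeq2). *Hspa1a* had 0.67 (adjusted p = 0.147), *Hspa1b* 0.29 and *Hspa8* −0.15. Of the 10 neural markers tested, 4 were called lower in the same libraries and 2 higher. Among them *Slc1a3* and *Gfap* had log2 fold changes of −1.66 and −1.38. The part of the neural markers in these values was not tested.

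Of the 34 heat shock factors and co-chaperones, 3 fell in NLPCs and none rose, where 5.96% of all genes tested were lower and 4.74% higher. *Bag1*, an exchange factor of HSP70, was lower by a log2 fold change of −0.55 (edgeR, adjusted p = 0.0106). The prefoldin subunits *Pfdn1* and *Pfdn6*, which hand clients to TRiC, had −0.48 (adjusted p = 0.0197) and −0.45 (adjusted p = 0.0471). With the replicate block *Pfdn6* did not pass (adjusted p = 0.0898), and with total counts alone neither prefoldin subunit did (adjusted p = 0.0534 for *Pfdn1* and 0.0699 for *Pfdn6*). Without 1 library, the call was lost in 3 of 6 fits for *Bag1*, 4 of 6 for *Pfdn1* and 5 of 6 for *Pfdn6*. *Hsf2* had −0.32 and *Hsf1* 0.21, neither past the threshold, and *Hsf4* was under 1 CPM in every library.

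Whether the change differed between lens and NLPCs was tested as an interaction in a joint fit of both mouse systems, which were counted against gene lists of different size. It passed for 7 of the 72 chaperone genes, not all of which were in the fit, where 8.53% of the 16675 genes in the fit passed. With the replicate block it passed for 4 (*Dnajc6*, *Hspa1l*, *Dnajb9* and *Hspa1b*). *Dnajc6* had a log2 fold change of −0.059 in the lens, at 24.2 to 28.4 CPM in Ctrl and 22.4 to 29.2 in *Qk*-iCKO, and of 2.06 in NLPCs (difference 2.21, adjusted p = 0.000124 from edgeR). *Hspa1l* went from 0.473 to 0.728 CPM in WT NLPCs to 0.736 to 0.759 (log2 fold change 0.34), so that the difference from the lens was −4.79 (adjusted p = 0.00505 from edgeR). *Dnajb9* was at 96.8 to 107 CPM in WT NLPCs and 74.9 to 98.6 in the libraries labelled *Qk* -/-, a log2 fold change of −0.24 (difference −1.49, adjusted p = 0.00809 from edgeR).

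For *Hspa1a* the difference was −2.34 (adjusted p = 0.0376), for *Hspa1b* −3.16 (adjusted p = 0.0457), for *Dnajc3* −0.70 (adjusted p = 0.0457) and for *Hspa13* −0.63 (adjusted p = 0.0454; all from edgeR). *Dnajc3* and *Hspa13* had values above 0 in the lens and fell in NLPCs. *Hspa5* had the same pattern, with 0.48 and −0.48, but the difference of −0.86 did not pass (adjusted p = 0.0884 from edgeR).

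**Figure D4:**
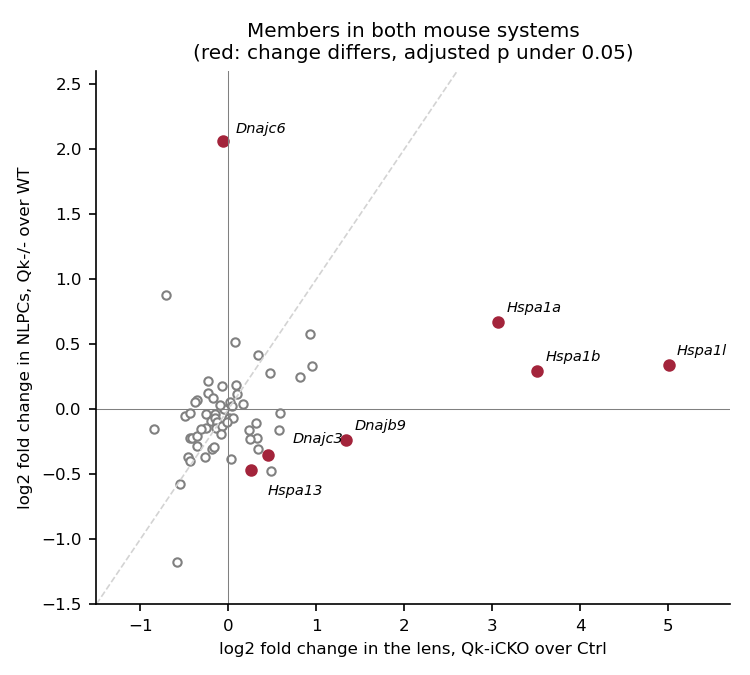
Log2 fold change of each member tested in both mouse systems, lens on the horizontal and NLPC on the vertical axis, with a dashed line of equal change; red points are the 7 members whose change differed between the systems. *Dnajc6* lies near 0 in lens and at 2.06 in NLPCs, and *Hspa1l*, *Hspa1a* and *Hspa1b* lie far to the right.

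In HLE-B3 cells 20 chaperone genes rose in *QKI* KO and 15 fell. They were 29.4 and 22.1% of the 68 members tested, where 17% of all 19049 genes tested were higher and 16.3% lower. At an unadjusted p under 0.05 there were 38 members, and the groups did not overlap in 41 of the 68 (60.3%), 24 above and 17 below WT, against 44.6% of all genes tested. Most changes were small: 4 members were past 2-fold (*HSPA2*, *DNAJC12*, *DNAJA4* and the uncalled *DNAJB8*), the median log2 fold change of the members was 0.03 and that of all genes −0.02. Of the 35 calls, 25 were kept in all 11 alternative fits.

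Of the abundant stress-inducible and constitutive genes, *HSPA1A* and *DNAJB1* were called lower by small amounts, and *HSPA1B*, *HSPA8*, *HSP90AA1* and *HSPH1* were not called. *HSPA1A* (chr6:31783320-31785723, GRCh37) was at 16471, 13796 and 15360 CPM in WT and 14066, 12405 and 13714 in *QKI* KO, so that the groups overlapped although the fit called it lower (log2 fold change −0.18, SE 0.06, adjusted p = 0.0191 from edgeR). The call was lost without WT replicate 1 or 3 or *QKI* KO replicate 2 or 3. *HSPA1B* had −0.13 (adjusted p = 0.101), *HSPA8* was at 6422, 6262 and 6628 CPM in WT and 6451, 6397 and 6422 in *QKI* KO (adjusted p = 0.964), and *HSP90AA1* and *HSPH1* had 0.02 and −0.03. *DNAJB1* was at 4644, 4800 and 4655 CPM in WT and 4307, 3754 and 4268 in *QKI* KO, all below WT (log2 fold change −0.19, SE 0.05, adjusted p = 0.00614 from edgeR).

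Among the abundant members, *HSP90AB1* rose from 5434, 5085 and 5186 to 6761, 6447 and 6856 CPM (log2 fold change 0.35, SE 0.04, adjusted p = 4.53e-06 from edgeR). *DNAJA1*, an HSP40 of the cytosol, rose from 983, 846 and 894 to 1229, 1204 and 1251 CPM (log2 fold change 0.44, SE 0.05, adjusted p = 9.74e-06 from edgeR). *HSPA6* was at 3366, 3351 and 3283 CPM in WT and 4459, 3861 and 4363 in *QKI* KO (log2 fold change 0.34, SE 0.05, adjusted p = 4.78e-05 from edgeR). The KO libraries were above WT in all 3 genes. The 50 genes nearest to *HSPA6* on its chromosome had a median log2 fold change of 0.31, which leaves 0.03, while *DNAJA1* stood 0.28 and *HSP90AB1* 0.22 above their own nearest 50.

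*HSPA2*, an HSP70 needed for sperm development, fell from 17.3, 15.2 and 17.2 to 5.53, 4.995 and 4.89 CPM (log2 fold change −1.69, SE 0.12, adjusted p = 1.05e-08 from edgeR). *DNAJC12*, a partner of the aromatic amino acid hydroxylases, fell from 2.20, 1.89 and 2.26 to 0.832, 0.550 and 0.382 CPM (log2 fold change −1.84, SE 0.34, adjusted p = 0.000387 from edgeR). KO libraries lay below WT in both. *DNAJA4* fell by 1.59 (adjusted p = 0.0304) and *HSPA12A*, a distant HSP70, by 0.98 (adjusted p = 0.0154), both from under 3 CPM. Of the 8 cytosolic HSP70 genes tested, 1 rose and 3 fell, where 17% of all genes tested were higher and 16.3% lower.

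J-domain proteins outside the ER and mitochondrial lists gave 8 higher and 8 lower of 30 tested, where 17% of all genes tested were higher and 16.3% lower. Those that rose included *DNAJC5*, the cysteine string protein of secretory vesicles, at 37.3, 37.8 and 38.3 CPM in WT and 61.4, 59.5 and 59.9 in *QKI* KO (log2 fold change 0.67, adjusted p = 4.15e-07 from edgeR), of which 0.42 is the median of its nearest 50 genes. *DNAJC6* rose from 22.5, 23.0 and 25.2 to 39.7, 37.2 and 37.3 CPM (log2 fold change 0.69, adjusted p = 2.51e-06 from edgeR), with a median of −0.02 in its nearest 50. *DNAJC2*, which sits on ribosomes, had 0.38, *DNAJC9*, which carries histones, 0.34, *DNAJB14*, an ER membrane protein that the ER list did not hold, 0.30, *DNAJB2*, which binds ubiquitin chains, 0.23 and *DNAJC7*, which also binds HSP90, 0.21.

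Those that fell included *DNAJB5*, from 70.6, 75.9 and 67.8 to 47.2, 40.9 and 47.0 CPM (log2 fold change −0.67, adjusted p = 2.45e-06 from edgeR). *DNAJC18* had −0.62, *DNAJC17*, which acts in splicing, −0.36, *DNAJC13*, which sorts cargo at endosomes, −0.32 and *DNAJC24* −0.29. Less the median of the nearest 50 genes, *DNAJC7* and *DNAJB14* turned to −0.057 and −0.12.

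Of the 8 TRiC subunits, *CCT3* and *CCT7* rose and none fell in *QKI* KO. *CCT3* was at 478, 448 and 442 CPM in WT and 654, 585 and 645 in *QKI* KO (log2 fold change 0.46, SE 0.06, adjusted p = 6.91e-06 from edgeR), and its nearest 50 genes had a median of 0.37. *CCT7* had 0.17 (adjusted p = 0.0452 from edgeR), with overlapping groups, and was not called with total counts alone (adjusted p = 0.137) or without WT replicate 2 or 3 or *QKI* KO replicate 1 or 3. The other 6 lay between −0.00052 for *CCT4* and 0.14 for *CCT2* on the log2 scale.

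ER members gave 3 higher and 2 lower of 8 in HLE-B3 cells, against 17 and 16.3% of all genes tested. *DNAJB9* rose from 11.9, 10.6 and 11 to 15.8, 15.4 and 13.9 CPM (log2 fold change 0.43, adjusted p = 0.00411 from edgeR). *HSPA5* was at 463, 485 and 540 CPM in WT and 536, 647 and 589 in *QKI* KO, with a slight overlap (log2 fold change 0.25, adjusted p = 0.00973, and 0.0558 with total counts alone), and *HSP90B1* had 0.18 (adjusted p = 0.00915). *DNAJC3* fell by 0.22 and *DNAJC10* by 0.16 on the log2 scale. The nearest 50 genes of *DNAJC3* were lower by more than it was, and less their median it had 0.24.

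Mitochondrial members gave 4 higher and 1 lower of 9, against 17 and 16.3% of all genes tested. *HSPD1* rose from 1238, 1132 and 1185 to 1405, 1379 and 1449 CPM (log2 fold change 0.25, adjusted p = 0.000551 from edgeR), while *HSPE1*, which works with it and shares its promoter region, fell from 62.6, 54.8 and 52.1 to 42.6, 51.7 and 45.1 CPM (log2 fold change −0.28, adjusted p = 0.0155 from edgeR). The *HSPE1* call was lost without WT replicate 1 or *QKI* KO replicate 1 or 3. *DNAJC30* had 0.58, *DNAJC19*, of the protein import motor, 0.49 and *DNAJC15* 0.24, and *HSPA9* had 0.07 (adjusted p = 0.286 from edgeR). Among HSP110 factors *HSPA4L* had 0.38 (adjusted p = 0.00123) and *HSPA4* −0.24 (adjusted p = 0.00101), and *HSPA4L* lay at −0.020 less the median of its nearest 50 genes.

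Over the 68 members tested, the median of the nearest 50 genes lay between −0.46 and 0.42. Of the 35 called members, 31 kept their sign less that median and *DNAJC3*, *DNAJB14*, *HSPA4L* and *DNAJC7* did not. By more than 0.2 on the log2 scale, 11 of the 20 higher members stood above their neighbours and 9 of the 15 lower ones below.

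Of the 34 heat shock factors and co-chaperones, 17 rose and 8 fell in *QKI* KO, where 17% of all genes tested were higher and 16.3% lower. *CHORDC1*, a co-chaperone of HSP90, went from 584, 531 and 634 to 1011, 1109 and 1001 CPM (log2 fold change 0.84, adjusted p = 3.62e-08 from edgeR). *HYOU1* had 0.51, the exchange factors *BAG2*, *HSPBP1* and *GRPEL1* 0.54, 0.54 and 0.42, and *PFDN2* 0.56. *BAG3*, which links HSP70 to autophagy, fell from 942, 995 and 959 to 696, 717 and 717 CPM (log2 fold change −0.44, adjusted p = 1.57e-06 from edgeR), and *SUGT1*, *BAG4* and *BAG6* had −0.63, −0.49 and −0.37. *HSF1*, *HSF2* and *HSF4* were not called.

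**Figure D5:**
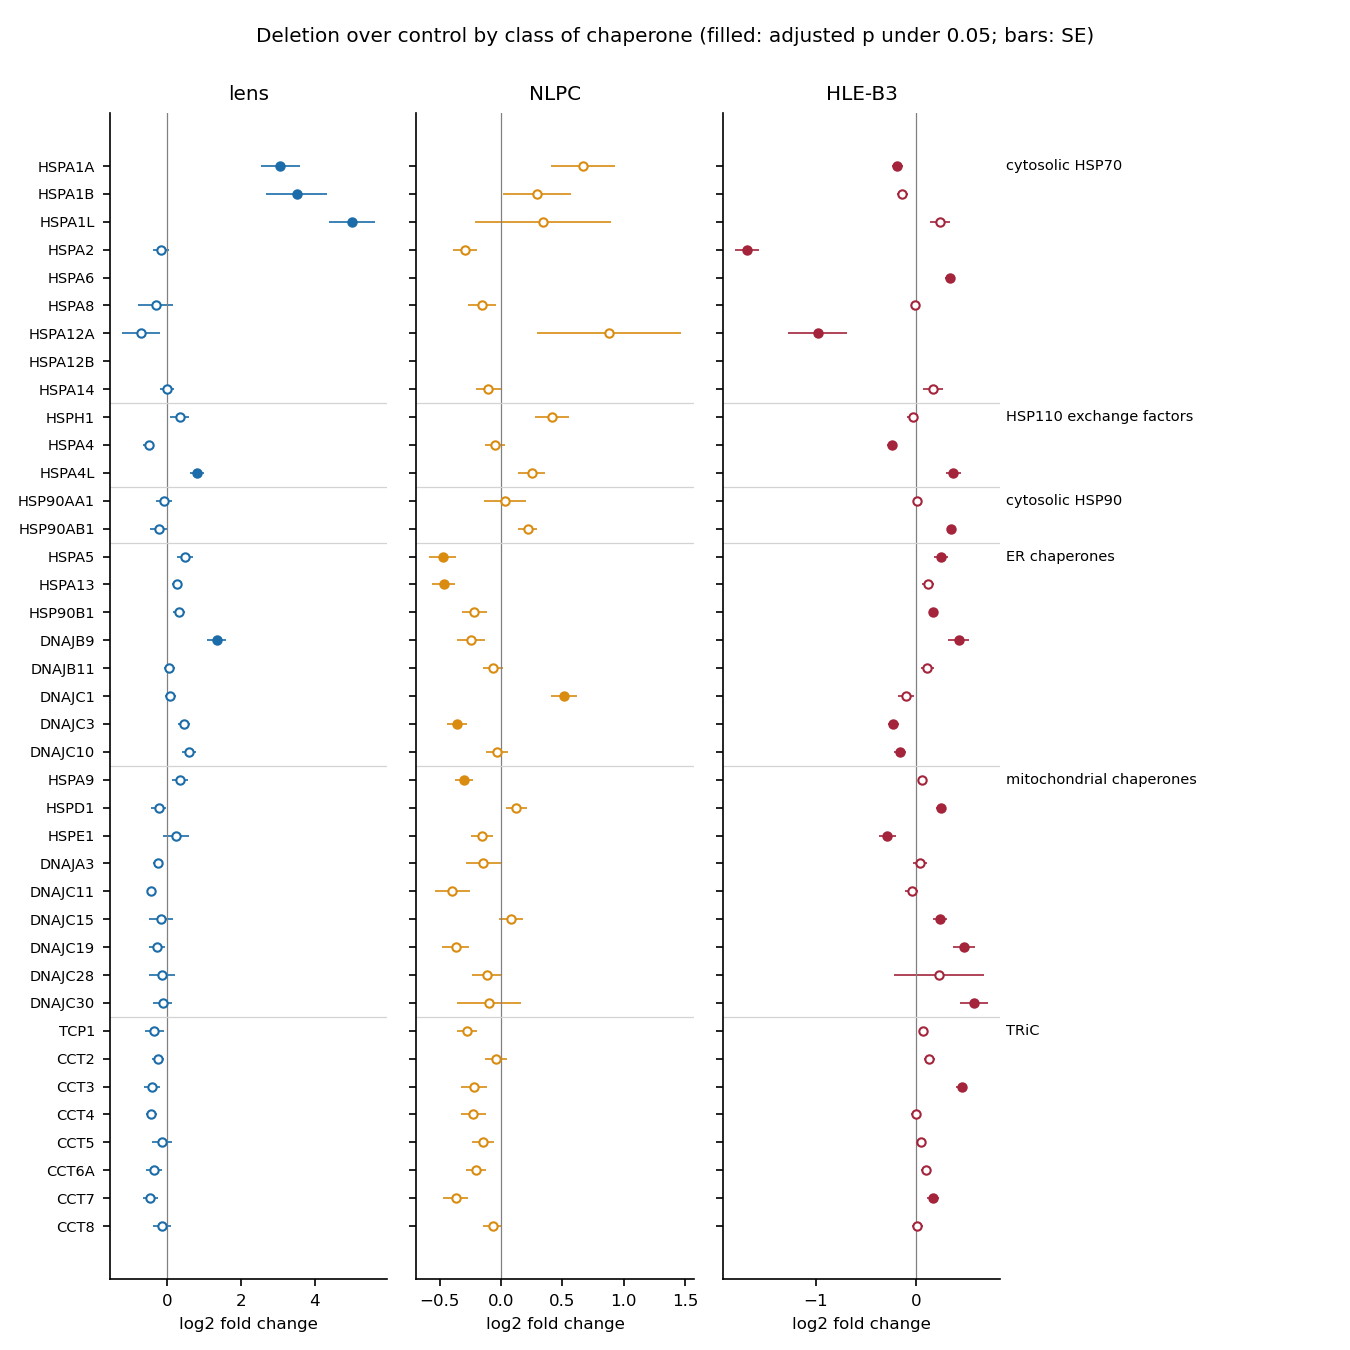
Log2 fold change of deletion over control for the members of 6 chaperone classes in lens (blue), NLPC (orange) and HLE-B3 (red), with bars of 1 standard error and filled points where the adjusted p was under 0.05; each panel has its own scale. TRiC subunits lie left of 0 in both mouse systems without a call. The 8 ER members of the list used lie right of 0 in lens and mostly left of it in NLPCs.

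Across the systems 41 members were called in at least 1, 7 in 2 and none in all 3. Of all genes tested, 8.38% were higher and 3.88% lower in the lens, 4.74 and 5.96% in NLPCs, and 17 and 16.3% in HLE-B3. The share of all genes called in more than 1 system was not counted, so the overlap is a description. Of the 7, 5 had the same direction: *Dnajb9* and *Hspa4l* rose in lens and HLE-B3, *Dnajc6* rose in NLPC and HLE-B3, and *Dnajc24* and *Dnajc3* fell in NLPC and HLE-B3. Of these 5, only *Dnajc6* was called in every alternative fit of both its systems. Less the median of the nearest 50 genes in HLE-B3, *HSPA4L* was at −0.020 and *DNAJC3* at 0.24, so their direction there turned. *Hspa1a* rose in lens and was called lower in HLE-B3, and *Hspa5* fell in NLPC and rose in HLE-B3.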

How the data were processed

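Total RNA from 18 libraries was sequenced, and the authors deposited raw counts per gene, 1 table per system, without normalization. By the methods, the authors used 2-pass STAR 2.6.1b (mm10 or hg19) and HTSeq 0.11.0. The submitters' processing notes also name HISAT2 2.0.4 and featureCounts without a role. The libraries were stranded, and the strand setting of the counting is not given in the sources used here.

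Each system was fitted on its whole table with edgeR 4.0.16 (R 4.3.3): filterByExpr (minimum count 10, total 15), TMM factors and the quasi-likelihood test, without covariates, with Benjamini-Hochberg adjustment over all genes tested. The joint mouse fit added an interaction. CPM use TMM-scaled library sizes. Coordinates and exon lengths are from GENCODE on GRCm38 and GRCh37. The smallest p of an exact permutation test at this size is 0.1. Intervals of count ratios cover counting error only.

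Named genes were called members (at most 25 per system), core HSP70, HSP90, HSP60 and TRiC genes, the 5 members highest per length, interaction calls, the 3 heat shock factors and up to 10 called co-chaperones. *Hspa2*, *Hspa12a*, *Hspa14*, *Dnaja1*, *Dnajc10*, *Dnajb11*, *Hspa4* and other uncalled members were named after their values were seen, as were calls past the first 25. The members and lists were chosen with earlier results of these data known.

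After group means were removed, same-numbered libraries correlated at 0.233, 0.133 and 0.523 in the lens and 0.123, 0.320 and 0.145 in NLPCs. Libraries of different number ran from −0.392 to 0.279 in the lens and from −0.303 to 0.232 in NLPCs, so pairing by number is not settled. The main fits did not use it, and the replicate block was an alternative. Alternatives were RLE factors, total counts alone, every gene with at least 1 count, DESeq2 1.42.0, the replicate block, each library left out, factors without crystallins (lens), the median of the 50 nearest genes (HLE-B3) and, added after seeing the data, lenses with at most 3 Y-linked counts. On simulated counts, edgeR called 42% of 2-fold and 96% of 4-fold changes at lens depth, 59 and 80% for NLPCs and 80 and 91% for HLE-B3. Of all calls there, 8, 6.08 and 8.56% fell on unchanged genes. The simulation used the fitted spread and changed 100 genes by each size, none from the lowest levels. The rates thus do not describe genes near the floor.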

Additional observations from a re-analysis of the deposited data

Results flagged for a closer look

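The change with deletion differed between the lens and NLPCs in 7 of the 72 chaperone genes, by the interaction of deletion and system in the joint edgeR fit (adjusted p under 0.05). Not all 72 were in the fit, and 8.53% of the 16675 genes in it passed. As log2 fold change in NLPCs minus that in the lens, the differences were 2.21 for *Dnajc6*, −4.79 for *Hspa1l*, −1.49 for *Dnajb9*, −2.34 for *Hspa1a*, −0.63 for *Hspa13*, −0.70 for *Dnajc3* and −3.16 for *Hspa1b*. *Dnajc6*, *Hspa1l* and *Dnajb9* passed in all 17 alternative fits. Counts behind the 3 HSP70 genes were 2 to 16 over the 3 Ctrl lenses together.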

How the results depend on the processing

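Over the alternatives other than leaving out libraries, 172 of 196 lens values, 139 of 160 NLPC values and 274 of 311 HLE-B3 values of named genes kept their direction and their side of the threshold, and 145 of 168, 143 of 192 and 294 of 324 did so without 1 library. In the lens 1 member was lower in DESeq2, and 13 were lower among lenses with at most 3 Y-linked counts, a comparison added after seeing the data whose deleted arm is the 1 lens that stood apart in scaling and so says nothing about spread; there *Hspe1* was at −0.63, *Hspa9* at −0.066, *Hsf1* at −0.20 and *Hsf2* at 0.0058. In NLPCs the members higher were 5 in DESeq2, and those lower 10 in DESeq2, 3 with the replicate block and 2 with total counts alone. The interaction gave 4 members with the replicate block, 5 with RLE factors and 10 in DESeq2. Without 1 library, the members higher in the lens were 1 (without Ctrl replicate 1) to 5 and lower 0, those in NLPCs 1 to 2 higher and 1 to 13 lower, those in HLE-B3 18 to 21 higher and 10 to 13 lower, and the interaction 3 to 7. In HLE-B3, where same-numbered libraries correlated at 0.061, 0.057 and −0.049, the replicate block gave 20 higher and 13 lower. In the lens the block changed no call of a member.

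Values of genes that were not called turned with total counts alone: in the lens *Hsp90aa1* to 0.13, *Cct5* to 0.059, *Cct8* to 0.067, *Hsp90ab1* to 0.010, *Hsf4* to 0.18 and *Hsf2* to 0.13, in NLPCs *Cct2* to 0.014, and in HLE-B3 *HSP90AA1* to −0.040, *CCT5* to −0.0072 and *CCT8* to −0.040. *HSPA8* turned to 0.0019 with RLE factors and 0.0034 in DESeq2, *CCT4* to 0.0046, 0.0013 (at least 1 count), 0.00025 (block) and 0.0061, and NLPC *Hsp90aa1* to −0.0044 (at least 1 count). Less the nearest 50 genes, *DNAJC3* was at 0.24, *DNAJB14* at −0.12, *HSPA4L* at −0.020 and *DNAJC7* at −0.057. Without 1 library, lens values ran from −0.093 to 0.53 (*Hspe1*), −0.97 to 0.024 (*Hspa8*), −0.25 to 0.12 (*Hsp90aa1*), −0.35 to 0.12 (*Cct5*), −0.29 to 0.078 (*Cct8*), −0.16 to 0.17 (*Hsf4*) and −0.055 to 0.38 (*Hsf1*). NLPC values ran from −0.19 to 0.15 (*Hsp90aa1*), −0.10 to 0.0080 (*Cct2*) and −0.53 to 1.38 (*Hsf4*). HLE-B3 values ran from −0.013 to 0.053 (*HSP90AA1*), −0.014 to 0.025 (*HSPA8*), −0.014 to 0.042 (*CCT4*), −0.078 to 0.042 (*HSPH1*), −0.0050 to 0.071 (*CCT8*), −0.079 to 0.061 (*HSF2*) and −0.20 to 0.015 (*HSF1*). The causes were not tested. Few counts limit *Hspa1a*, *Hspa1b* and *Hspa1l* in the lens.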
